A study of Macaca mulatta with 8 samples.

Results

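The expression of 10 genes that mark microglial states was measured in macaque retina by single-cell RNA sequencing: the homeostatic genes P2RY12, P2RY13, CX3CR1, TMEM119, SALL1 and GPR34, and the disease-associated genes TREM2, APOE, SPP1 and GPNMB. They were chosen by gene symbol among the 26533 features of the count matrices, and all 10 symbols were found. The 8 libraries were 5′ droplet libraries of retinal punches from 2 wild-type male animals, with 1 library per eye in each of 4 groups. NHP1, 5 years of age, gave retina labelled uninjected from eyes that had received AAV2-CAG-hRPE65 in separate subretinal blebs. NHP2, 6 years of age, gave 3 punches from each eye, from uninjected retina and from blebs of AAV8-GRK1-hRPGR and AAV8-GRK1-mScarlet. Blebs are where the subretinal injection detached the retina, GRK1 is a photoreceptor promoter, hRPGR is a codon-optimized human sequence and mScarlet is a red fluorescent reporter given at a lower vector dose. Every eye received triamcinolone, a steroid, and every left eye adalimumab, an antibody against TNF, so that eye and drug cannot be told apart. The 6 libraries of NHP2 came from 1 animal, and p-values therefore measure the spread between areas and eyes of that animal.

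Microglia are the resident macrophages of the retina. In healthy tissue they extend motile processes and carry purinergic and chemokine receptors with which they sense nucleotides and neuronal fractalkine. Around injured or degenerating neurons they can lower these receptors and raise genes of lipid handling and phagocytosis, a change for which TREM2 signaling and its lipoprotein ligand APOE are best known. GPNMB, a glycoprotein of lysosomes and melanosomes, and SPP1, the secreted protein osteopontin, are widely used labels of the latter state.

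The promoter stretches with motif matches are shown first, and not every gene held a match. The 250 bases before and 50 after 1 annotated start per gene, that of the most upstream curated RefSeq transcript where there is one and else of the most upstream predicted one, were read from Mmul_10 and searched on both strands for GAGGAAGT, a sequence of the myeloid factor PU.1, and for CACGTG and CATGTG, E-boxes of the MITF and TFE family of lysosomal regulators. In the sequences below, written in the direction of the gene, capitals mark the motif or its reverse complement, and a position counts from the start site.
TREM2, chr4:128214564-128214591, plus strand: tcaggctgggGAGGAAGTggtagaacag
TMEM119, chr11:108223851-108223878, minus strand: cgaggtcaggGAGGAAGTgccgcatctg
GPNMB, chr3:91858486-91858511, minus strand: gactcataagCACATGagttgtaaga
GPNMB, chr3:91858425-91858450, minus strand: ttaataccatCACATGatcctccccg
GPR34, chrX:41556135-41556160, plus strand: accctgccacCACATGtgaacataaa
P2RY13, chr2:53490188-53490213, minus strand: acatttgcttCACATGctcttttgta
GAGGAAGT began at position -106 in TREM2 and -166 in TMEM119, and 2.22% of 20787 promoters held it. CATGTG occurred in GPNMB at -133 and -72, in GPR34 at -54, overlapping a second match on the other strand at -52, and in P2RY13 at -5, against 9.62% of promoters. CACGTG, present in 7.67% of promoters, was not found in these windows for any of the 10 genes. P2RY12, CX3CR1, SALL1, APOE and SPP1 held none of these motifs there. The stretches shown for GPNMB, GPR34 and P2RY13 also touch annotated exons of these or overlapping genes, and those for TREM2 and TMEM119 do not. A match describes the letters only and shows no binding.

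The whole-gene spans on Mmul_10 were chr2:53497407-53544222 for P2RY12, chr2:53487000-53490198 for P2RY13, chr2:94725701-94741488 for CX3CR1, chr20:38235433-38250961 for SALL1, chr11:108214745-108223702 for TMEM119 and chrX:41556145-41565125 for GPR34. Those of the disease-associated genes were chr4:128214680-128248374 for TREM2, chr19:44944814-44948739 for APOE, chr5:86367764-86375538 for SPP1 and chr3:91829663-91903103 for GPNMB. P2RY12 and P2RY13 lie within MED12L, GPR34 overlaps CASK and SALL1 overlaps LOC106995014, in each case on the opposite strand. The spans cover all transcripts, and the transcript starts used above for GPNMB, GPR34 and SPP1 lie inside them, that of GPNMB in the interior of its span.

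The libraries held 90634306 to 146519011 UMIs each, and 9562 to 15080 barcodes per library passed as cells, with medians of 4606 to 6036 UMIs. Any pair of libraries shared at most 2.16% of the cell barcodes of the smaller one. The clusters named myeloid-like held 1751 cells and were led by the complement genes C1QA, C3, C1QB and C1QC, with 14 of 14 myeloid markers detected in each library. The right and left libraries gave 29 and 110 such cells in NHP1, and 84 and 81 in the uninjected areas of NHP2. The hRPGR blebs gave 386 and 142, and the mScarlet blebs 485 and 434. They formed a deep cluster of 814 cells and a shallow cluster of 937 cells, whose median depth was 0.381 times that of their libraries. Some libraries stood apart from their labels. The hRPGR transgene was counted in 17.7% of cells in NHP2's right uninjected area and in 0 cells in its left one, and the hRPE65 transgene in 46.6% of the cells of the left NHP1 library labelled uninjected. The left hRPGR bleb held fewer myeloid-like cells than the right one, and the transgene was counted in 66.9% and 95.4% of their cells.

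Across the retina the genes fell into those counted almost wholly in myeloid-like cells and those shared with other classes. TREM2, the lipid-sensing receptor, had 94.7 to 100% of its UMIs among named cells in myeloid-like cells, and GPR34, a lysophospholipid receptor, 91.7 to 96.2%. The share was 88.9 to 98.2% for CX3CR1, the fractalkine receptor, and 85.7 to 100% for P2RY13, an ADP receptor. P2RY12, the ADP receptor that guides microglial processes, reached 40.2 to 94.1%, the rest being mostly in Muller glia-like cells at 2.53 to 5.88 CPM, above the free RNA of the same library in 7 of 8 libraries. CPM are UMIs of a gene in a class of a library, scaled to a sum of 1000000 over all genes. Free RNA here is that of barcodes with 100 to 1000 UMIs.

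**Figure D1:**
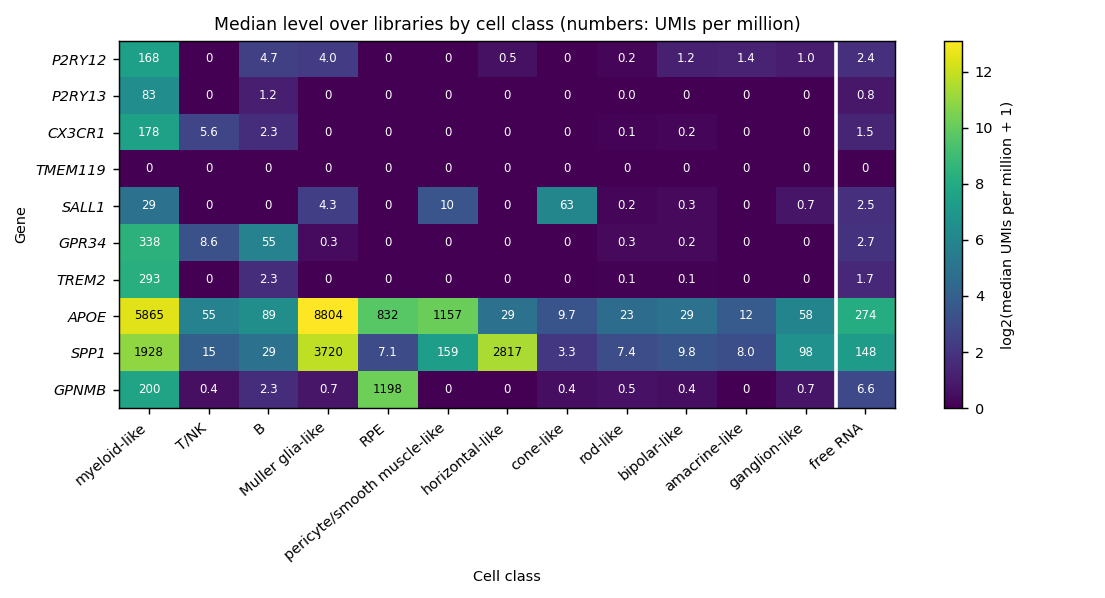
Median over libraries of each gene's level in each cell class and in free RNA, in CPM; color is log2(median + 1). The homeostatic receptors and TREM2 stand in the myeloid-like column, APOE and SPP1 also in Muller glia-like cells, GPNMB in RPE and SALL1 in cone-like cells.

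TMEM119, a surface protein that marks resident microglia in human and mouse, was not usable here. It had 0 UMIs among 14969579 UMIs of myeloid-like cells, which allows a level of up to 0.200 CPM, and 1 UMI in all barcodes of the 8 libraries. This describes detection with the reference used and not the absence of the protein. SALL1, the transcription factor that maintains microglial identity, was counted at 0 to 51.8 CPM in myeloid-like cells and at 45.9 to 90.5 in cone-like cells, where it exceeded free RNA in 8 of 8 libraries. Only 0 to 31.2% of its UMIs among named cells were in myeloid-like cells.

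The secreted disease-associated products came from several classes. APOE, a lipid carrier, was counted at 6951 to 11076 CPM in Muller glia-like cells, at 3841 to 12217 in myeloid-like cells and at 524 to 1675 in RPE, the pigment epithelium, in the 3 libraries with enough of those cells. SPP1 was counted at 2634 to 4349 in Muller glia-like cells, at 1727 to 3672 in horizontal-like cells and at 985 to 3891 in myeloid-like cells. Each of these ranges lay above free RNA, whose medians were 274 for APOE and 148 for SPP1. GPNMB was counted at 426 to 1267 in RPE and at up to 3.06 in Muller glia-like cells, and free RNA had a median of 6.55. Among lymphocytes, GPR34 was counted at 51.2 to 59.0 in the B-like cells of 2 libraries, and CX3CR1 at up to 8.76 in T/NK-like cells.

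Over 76 sums of library and class, the gene most like TREM2 in level was C1QC (Pearson r of 0.981), and that most like P2RY13 was LILRA1 (0.979). CX3CR1 was closest to LILRAB (0.963), GPR34 to CD86 (0.959) and P2RY12 to TLR2 (0.944). Looser partners were found for APOE with LYZ (0.933), GPNMB with FLVCR2 (0.859), SPP1 with ATF5 (0.844) and SALL1 with ENSMMUG00000053106 (0.796). The next in order were SIRPB2 for TREM2 (0.981), CLEC7A for P2RY13 (0.977), CCL8 for CX3CR1 (0.960), LAT2 for GPR34 (0.959), ENSMMUG00000055438 for P2RY12 (0.934), RAB13 for APOE (0.906), PLA1A for GPNMB (0.857), FGFR1 for SPP1 (0.795) and ERMAP for SALL1 (0.794). The sums share libraries, depth and classes, so that these values describe the same class contrast and no more.

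In the mScarlet blebs, GPNMB rose in myeloid-like cells relative to the uninjected areas of NHP2. GPNMB was at 5.50 CPM in the right and 79.7 in the left uninjected area, and at 756 in the right and 617 in the left mScarlet bleb. The value of 5.50 rests on 3 UMIs, with an exact Poisson 95% interval of 1.13 to 16.1 for counting error alone. The groups did not overlap, which 2 libraries against 2 can also give in unchanged genes. The share of all genes without overlap was not counted, here or below. The log2 fold change was 4.10 ± 0.84 (SE, n = 2 and 2 libraries) (adjusted p = 0.0405, edgeR). GPNMB was the 1 gene called of 9 tested, and 6 had an unadjusted p under 0.05 (17.7% of all genes), while 2.53% of all 10735 genes tested were called, 1.02% raised and 1.51% lowered. TMEM119 did not pass the filter on low counts.

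APOE stood higher in both mScarlet blebs without passing the threshold. It was at 4263 and 3841 CPM in the right and left uninjected areas, and at 11055 and 12217 in the mScarlet blebs. The log2 fold change of 1.57 ± 0.37 had an adjusted p of 0.0645 in edgeR. In DESeq2, which called 4.09% of all genes, APOE passed with an adjusted p of 0.00134 and GPNMB did not, at 0.0587.

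The homeostatic receptors were lower in both mScarlet blebs than in either uninjected area, and none passed the threshold in edgeR. P2RY12 was at 625 and 253 CPM in the right and left uninjected areas and at 176 and 138 in the mScarlet blebs. CX3CR1 was at 793 and 256 against 162 and 148, and P2RY13 at 169 and 93.3 against 72.1 and 59.3. GPR34 was at 491 and 424 against 253 and 220. In each of these genes except GPR34 the right uninjected area, the one with hRPGR transcripts, was well above the left. The log2 fold changes were -1.74 ± 0.49 for CX3CR1 (adjusted p = 0.103), -1.46 ± 0.46 for P2RY12 (0.138), -0.96 ± 0.30 for P2RY13 (0.137) and -0.91 ± 0.34 for GPR34 (0.207) in edgeR. DESeq2 called CX3CR1, with an adjusted p of 0.0309. The values moved with the uninjected area used: without the right one CX3CR1 was at -0.59, P2RY12 at -0.55, P2RY13 at -0.37 and GPR34 at -0.71, and without the left one at -2.35, -1.99, -1.35 and -1.05.

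The remaining genes did not separate the areas. TREM2 was at 335 and 268 CPM in the uninjected areas and at 397 and 294 in the mScarlet blebs, SPP1 at 3891 and 1651 against 1693 and 2862, and SALL1 at 31.1 and 38.9 against 40.2 and 26.8. The groups overlapped in all 3, and the log2 fold changes of 0.24 ± 0.25, -0.26 ± 0.49 and -0.01 ± 0.46 had adjusted p-values of 0.689, 0.837 and 0.994 in edgeR.

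**Figure D2:**
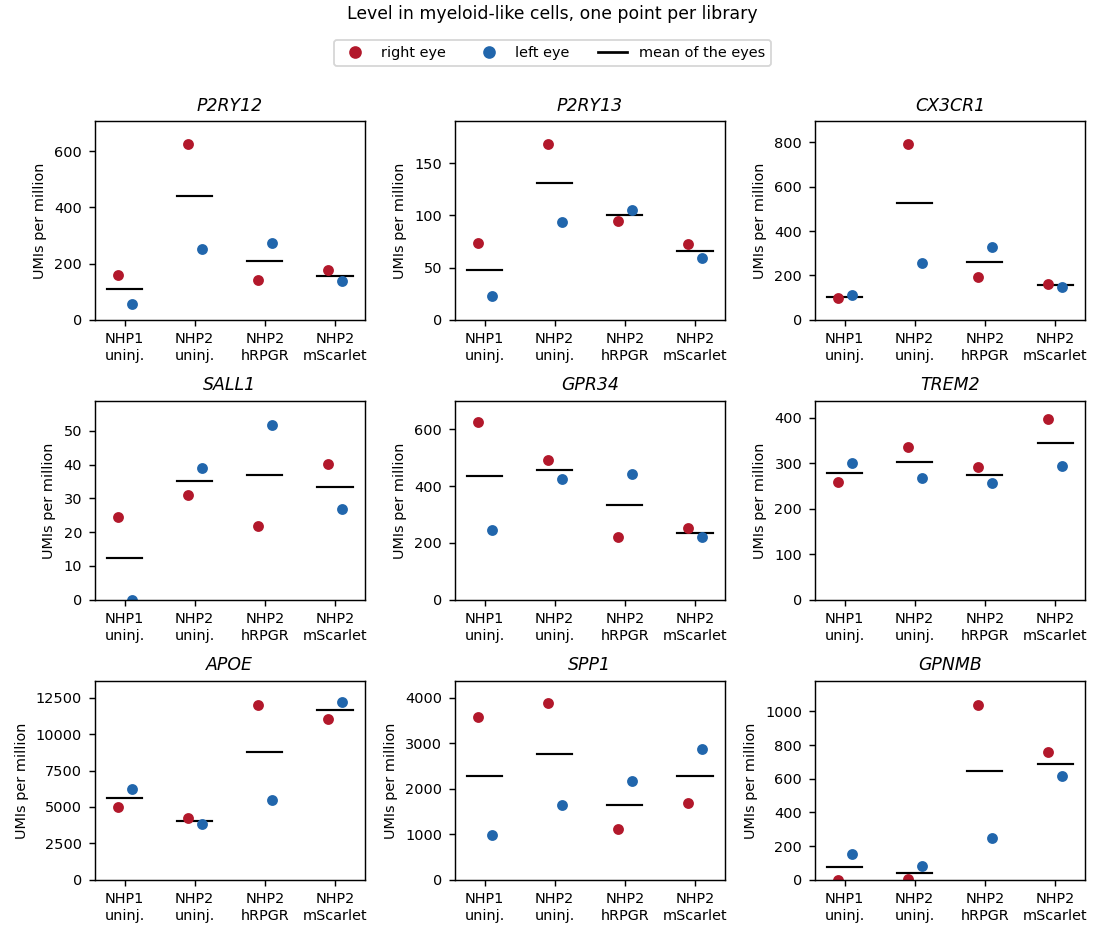
Level of 9 genes in myeloid-like cells, in CPM of that class; each point is 1 library, red for right and blue for left eyes, and the bar is the mean of the eyes. GPNMB and APOE are higher in both mScarlet blebs than in both uninjected areas of NHP2, P2RY12, P2RY13, CX3CR1 and GPR34 are lower, and the left hRPGR bleb lies near the uninjected areas for most genes.

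The GPNMB call depended on the setting. It was lost without the right uninjected area (3.24, adjusted p = 0.128 in edgeR), without either mScarlet bleb, with free RNA subtracted (3.94, adjusted p = 0.318, where no gene of 9723 was called) and in the deep cluster alone (4.95, adjusted p = 0.0910). It was also lost with scaling by library sizes alone (4.03, adjusted p = 0.0527), with doublets kept (4.14, 0.0611), with cells of at least 3000 UMIs (3.99, 0.0739) and with a dispersion estimated from all 8 libraries (4.12, 0.0648, all in edgeR). Over all alternatives the log2 fold change of GPNMB ran from 3.24 to 6.96. Without the left uninjected area, CX3CR1 passed at -2.35 (adjusted p = 0.0382 in edgeR), GPNMB did not (6.96, adjusted p = 0.0554), and without either hRPGR bleb APOE passed as well. Rod markers, which myeloid cells do not make, moved with the groups: 9 of 9 were detected in each library, at summed levels of 1409 to 1939 CPM in the mScarlet blebs, 4532 to 5113 in the hRPGR blebs and 5133 to 6808 in the uninjected areas, and their part in the result was not tested. RPE markers, relevant to GPNMB, summed to 192 to 196 CPM in the mScarlet blebs and 153 to 180 in the hRPGR blebs. They summed to 190 to 480 in the uninjected areas, and their part in the GPNMB values was not tested.

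In the hRPGR blebs GPNMB and APOE lay above the uninjected area in both eyes. The homeostatic receptors P2RY12, CX3CR1, P2RY13 and GPR34 lay below it in the right eye alone. GPNMB was at 1040 CPM in the right and 249 in the left bleb, both above the uninjected areas, and APOE at 12024 and 5469, likewise above. P2RY12 was at 141 in the right bleb and 274 in the left, CX3CR1 at 195 and 326, P2RY13 at 94.3 and 105 and GPR34 at 220 and 443, so that for each of these the left bleb exceeded the left uninjected area. SPP1 was at 1102 and 2164, TREM2 at 291 and 257 and SALL1 at 22.0 and 51.8. In these 3 genes, as in the homeostatic receptors, the groups overlapped.

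None of the 9 genes tested was called for the hRPGR blebs in edgeR, where 0.0279% of all genes were called, 0.0186% raised and 0.00932% lowered, or in DESeq2 (0.121% of all genes), and 3 of the 9 had an unadjusted p under 0.05 (6.87% of all genes). The log2 fold changes were 3.89 ± 0.84 for GPNMB (adjusted p = 0.523), 1.03 ± 0.37 for APOE (0.651), -1.16 ± 0.47 for P2RY12 (0.706) and -1.10 ± 0.49 for CX3CR1 (0.713) in edgeR. The others were -0.83 for SPP1, -0.52 for GPR34, -0.47 for P2RY13, -0.20 for TREM2 and -0.07 for SALL1. Over all alternatives GPNMB ran from 2.59 to 6.73, APOE from 0.43 to 1.49, P2RY12 from -1.73 to -0.27 and CX3CR1 from -1.72 to 0.04. Both comparisons share the uninjected areas.

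**Figure D3:**
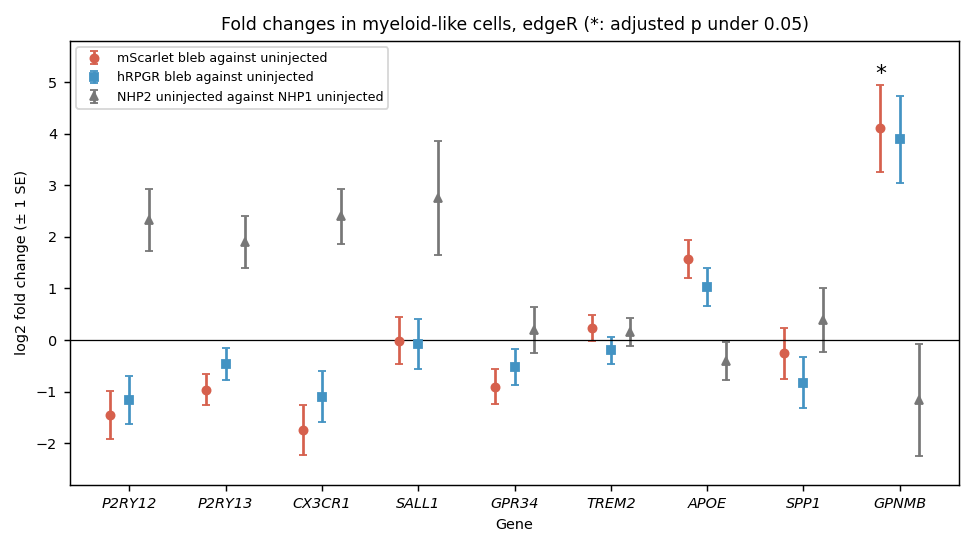
Log2 fold changes with 1 SE from edgeR in myeloid-like cells for 9 genes. Circles are mScarlet blebs and squares hRPGR blebs, each against the uninjected areas of NHP2. Triangles are the libraries labelled uninjected of NHP2 against those of NHP1. The asterisk marks GPNMB in the mScarlet blebs, the only value shown with an adjusted p under 0.05.

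With both vectors pooled, 4 blebs against 2 uninjected areas, no gene of the 9 was called in edgeR (0.102% of all genes, 0.0373% raised and 0.0652% lowered), 6 had an unadjusted p under 0.05 (13.2% of all genes), and DESeq2, with 1.53% of all genes called, called APOE (adjusted p = 0.00600) and GPNMB (0.0496). The log2 fold changes in edgeR were 4.00 ± 0.80 for GPNMB (adjusted p = 0.103), 1.30 ± 0.33 for APOE (0.164), -1.42 ± 0.40 for CX3CR1 (0.197) and -1.31 ± 0.39 for P2RY12 (0.207). Over all alternatives they ran from 3.13 to 6.85, 1.01 to 1.55, -2.03 to -0.28 and -1.85 to -0.41 in that order. Between the vectors, mScarlet against hRPGR blebs gave 0 calls in edgeR and in DESeq2 and 0 with an unadjusted p under 0.05, where edgeR called 0.848% of all genes, 0.186% higher and 0.661% lower, and DESeq2 1.34%. Those log2 differences were 0.22 ± 0.67 for GPNMB, 0.53 ± 0.36 for APOE, 0.44 ± 0.25 for TREM2 and -0.64 ± 0.48 for CX3CR1.

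Left against right eyes of NHP2 gave 0 calls among the 9 genes in edgeR and in DESeq2, 0 with an unadjusted p under 0.05, beside 0.00932% of all genes in edgeR and 0.14% in DESeq2. The estimates ran from -0.39 ± 0.33 for APOE to 0.23 ± 0.33 for SALL1. The libraries labelled uninjected of NHP2 against those of NHP1 gave 0 calls in edgeR (0.311% of all 9637 genes, 0.218% higher and 0.0934% lower), 4 genes with an unadjusted p under 0.05 (12.5% of all genes), and 2 calls in DESeq2 (1.34% of all genes), P2RY12 (adjusted p = 0.0196) and CX3CR1 (0.00155). These p-values measure the spread between libraries of an animal and not between animals. The hRPE65 transgene was counted in 46.6% of cells of the left and 0.0740% of the right NHP1 library. These libraries therefore differ in more than the eye. Animal, age and the vectors given to the eyes cannot be told apart here. In NHP1 the right and left libraries had 160 and 56.0 CPM of P2RY12, 98.2 and 110 of CX3CR1 and 73.6 and 22.4 of P2RY13, below the uninjected areas of NHP2 in all 3 genes. The log2 differences were 2.33 ± 0.60, 2.40 ± 0.53 and 1.91 ± 0.51, with adjusted p-values of 0.167, 0.119 and 0.183 in edgeR. Over all alternatives they ran from 1.52 to 3.07, 1.31 to 3.05 and 0.95 to 2.64 in that order. GPR34 at 626 and 246, TREM2 at 258 and 301, APOE at 4965 and 6261 and SPP1 at 3572 and 985 had log2 differences of 0.20 ± 0.45, 0.16 ± 0.27, -0.41 ± 0.37 and 0.38 ± 0.62 in the order given. The right NHP1 library had only 29 cells, SALL1 was at 24.5 and 0, and GPNMB at 0 and 150. Border macrophage genes summed to 2754 to 4376 CPM in NHP1 and 502 to 589 in uninjected NHP2, and the monocyte genes to 970 to 2093 and 322 to 589, and their part in these differences was not tested.

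Shares of cells with a UMI were compared at an equal depth of 1500 UMIs per cell, reached by thinning. A UMI of any homeostatic gene was found in 71.4% and 64.2% of the myeloid-like cells of the right and left uninjected areas. The hRPGR blebs had 43.0% and 66.2%, and the mScarlet blebs 56.1% and 52.1%. The mean over blebs was 54.3 ± 9.61% (SD, n = 4), against 67.8 ± 5.11% (n = 2), a difference of -13.5 percentage points with p = 0.267 in an exact two-sided permutation test. A UMI of any disease-associated gene was found in 94.1 ± 2.13% of cells in blebs and 87.9 ± 3.12% in uninjected areas, a difference of 6.20 points with p = 0.0667 in the same exact test, the smallest its 15 arrangements allow. The disease-associated share mostly followed APOE, which by itself was found in 72.6 to 96.4% of the myeloid-like cells of a library. Bipolar-like cells, which should lack the genes of both kinds, gave 0.195 to 0.771% for the homeostatic and 1.79 to 10.3% for the disease-associated genes. Their median depths were 5929.5 to 7984 UMIs before thinning, against 3072 to 7553.5 in myeloid-like cells. Without thinning the differences were -6.10 and 5.66 points, and with cells thinned to 3000 UMIs they were -15.7 and 2.76 points (exact p = 0.0667 and 0.333).

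Gene by gene, GPNMB gave the clearest contrast in cells. It was found in 0 of 84 thinned cells of the right uninjected area, where a count of 0 allows up to 3.57% of cells with a UMI at this depth and the exact interval reaches 4.30%, and in 4.94% of the left. Before thinning the former held 3 UMIs. It was found in 34.7% and 18.3% of cells of hRPGR blebs and 28.9% and 26.3% of cells of mScarlet blebs, against at most 0.361% of bipolar-like cells. P2RY12 was found in 51.2% and 30.9% of cells of the uninjected areas, 14.0% and 35.2% of those of the hRPGR blebs and 22.9% and 15.9% of those of the mScarlet blebs, so that the left hRPGR bleb again lay with the uninjected areas. TREM2 was found in 31.0% and 30.9%, 29.5% and 31.0%, and 39.0% and 36.6% of cells in the same order.

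**Figure D4:**
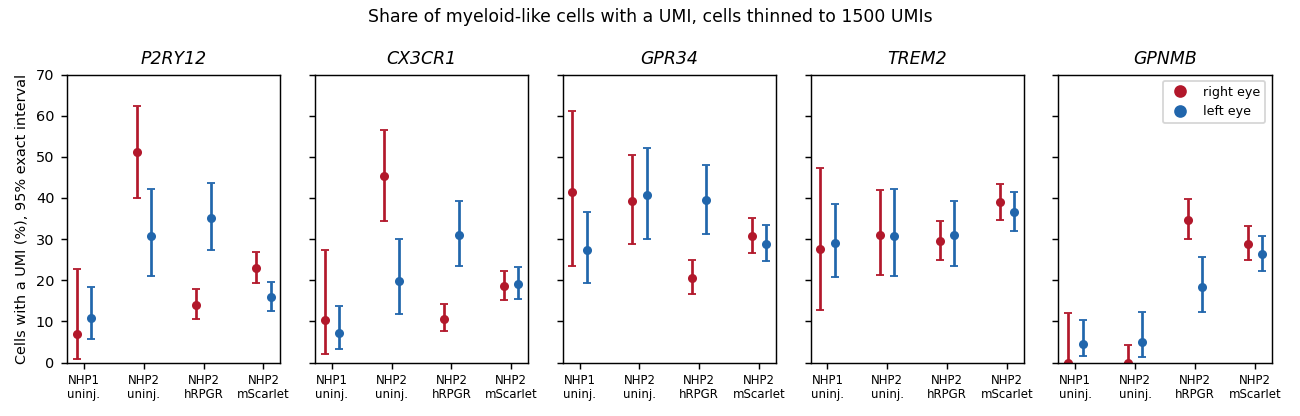
Share of myeloid-like cells with a UMI of P2RY12, CX3CR1, GPR34, TREM2 and GPNMB in each library, with exact 95% intervals for counting error, after thinning each cell to 1500 UMIs; red is the right and blue the left eye. GPNMB lies between 18.3% and 34.7% in the 4 blebs and at or below 4.94% in the 4 other libraries.

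Further genes of both programs were taken from lists. The lists were chosen with earlier results of these data known, so that their counts are no independent support. Of 18 further disease-associated genes tested for the mScarlet blebs, 15 had a log2 fold change above 0 (median 1.09, against -0.01 over all genes), and 3 rose, beside 1.02% of all genes raised: APOC1, an apolipoprotein next to APOE (3.60, adjusted p = 0.0160), LGALS3, the lectin galectin-3 (2.48, 0.0171), and FABP5, a fatty acid carrier (2.23, 0.0493), all in edgeR. Each of these calls was lost without the right uninjected area, without the left mScarlet bleb, with free RNA subtracted and in the deep cluster alone, with adjusted p-values of up to 0.245 for APOC1 and LGALS3 and 0.361 for FABP5 in edgeR, and 12, 12 and 8 of 16 alternatives kept APOC1, LGALS3 and FABP5. Their log2 fold changes ran over the alternatives from 3.29 to 4.05, 2.14 to 2.98 and 1.90 to 2.64 in that order, and were 3.44, 2.28 and 2.37 with free RNA subtracted. In the hRPGR blebs 14 of the 18 were above 0 (median 0.60) and 0 were called in edgeR, with LGALS3 at 2.07 and an adjusted p of 0.458. DESeq2 called 6 of the 18 for mScarlet and 2 for hRPGR, beside 4.09% and 0.121% of all genes. Of 13 further homeostatic genes, 5 were above 0 and 8 below in the mScarlet blebs (median -0.16). Of these, 0 were called in edgeR, and DESeq2 called 2, both raised and none lowered. The lowest p was that of TGFBR2, a TGF-beta receptor, which lay above 0 (0.99, adjusted p = 0.0748 in edgeR). In the hRPGR blebs 4 were above 0 and 9 below.

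Markers of other macrophages were read beside these lists. In the mScarlet blebs the border macrophage genes MRC1, the mannose receptor, and LYVE1, a hyaluronan receptor, fell by 2.70 and 2.02 on the log2 scale (adjusted p = 0.0244 and 0.0489 in edgeR), and 2 of the 5 genes tested of that list of 6 were called, 4 lying below 0, beside 1.51% of all genes lowered. CD163, a scavenger receptor, was at -0.14, STAB1, another, at -0.78 and F13A1, a coagulation factor subunit, at 0.60 (adjusted p = 0.891, 0.416 and 0.293 in edgeR). The MRC1 call was kept in 11 and the LYVE1 call in 6 of 16 alternatives, and both were lost in the 4 settings named above for the disease-associated list, with adjusted p-values of up to 0.245 and 0.318. With free RNA subtracted MRC1 was at -2.90 and LYVE1 at -2.22. MRC1 ran from -2.19 without the left to -3.39 without the right mScarlet bleb, and LYVE1 from -0.998 without the right to -2.59 without the left uninjected area. The border macrophage list summed to 354 to 452 CPM in the mScarlet blebs, 414 to 417 in the hRPGR blebs and 502 to 589 in the uninjected areas. Of 8 monocyte genes 2 passed the filter, both above 0, and 0 were called. LYZ, or lysozyme, was at a log2 fold change of 1.44 (adjusted p = 0.125 in edgeR). The monocyte list summed to 1076 to 1263 CPM in the mScarlet blebs, 414 to 1045 in the hRPGR blebs and 322 to 589 in the uninjected areas. Its part in the GPNMB and APOE values was not tested.

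In Muller glia-like cells, which also express APOE and SPP1, no gene of the group passed the test for either vector. Of 4 genes tested 0 were called for the mScarlet blebs in edgeR (0.305% of all genes, 0.219% raised and 0.0859% lowered), 1 had an unadjusted p under 0.05 (14.6% of all genes), and 0 were called in DESeq2 (3.09% of all genes). The log2 fold changes were 0.24 ± 0.17 for APOE (adjusted p = 0.590), -0.44 ± 0.16 for SPP1 (0.288), 0.60 ± 0.29 for P2RY12 (0.404) and -0.90 ± 0.46 for SALL1 (0.440). For the hRPGR blebs 0 were called in edgeR (0.00781% of all genes) and in DESeq2 (0.195%), and 1 had an unadjusted p under 0.05 (3.84% of all genes). There APOE was at 0.07 ± 0.17 and SPP1 at 0.09 ± 0.16. Over the alternatives SALL1 ran from -1.94 to -0.82 and P2RY12 from 0.18 to 0.45 in that comparison.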

How the data were processed

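Retinal punches of 2 macaques were profiled as 8 droplet libraries. The authors deposited unnormalized UMI counts from Cell Ranger, on a Mmul_10 reference extended by 3 transgenes, and no column was left without a sample. Matrices were unfiltered, with 678289 to 717865 barcodes per library. Barcodes passed as cells with 1500 or more UMIs, 300 or more genes and no more than 20% of UMIs from mitochondrial genes (91796). Scrublet's own threshold marked too few cells, so the highest scores, 0.8% per 1000 cells, were removed (8604 barcodes). Cells were clustered with scanpy 1.11.5 (3000 variable genes without the genes and lists reported, 40 components, 15 neighbors, leiden 0.10.2 at resolution 2) and named from fixed markers, so that differences from the study may come from the rebuilt names. 22436 cells stayed unnamed, 11.2 to 47.9% of a library.

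Sums of UMIs over the cells of a class in a library were tested with edgeR 4.0.16 (R 4.3.3, TMM, filterByExpr, quasi-likelihood F test, Benjamini-Hochberg over all genes tested, threshold 0.05). The SE is the log2 fold change divided by the square root of F. The 6 NHP2 libraries shared 1 dispersion, and all 8 entered the comparison of animals. DESeq2 1.42.0 was an alternative. On simulated data made for the mScarlet comparison in 10307 genes, edgeR recovered 28% of 50 genes changed by 2-fold, 88% by 4-fold and 98% by 8-fold, and called 8 unchanged genes. Only genes above a minimum mean count were changed. Every gene had the same spread (biological coefficient of variation 0.180), with no eye or area difference. These rates therefore do not carry over to genes that varied more between libraries, as GPNMB did. The same eye of 1 animal pairs the libraries, and left minus right differences correlated across 10735 genes at r of -0.0965, -0.0120 and 0.0483 between groups. Clopper-Pearson 95% intervals are given for shares, and intervals and limits for a count of 0 (3 counts) cover counting error only.

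Named genes are the 10 members in every fit, the called genes of each list (else the 3 with the lowest p) and the 2 genes most correlated with each member. Of 15 further homeostatic genes, OLFML3 and ADORA3 were not found by symbol. The values of some listed genes are not reported here. The members and lists were chosen with earlier results of these data known.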

Additional observations from a re-analysis of the deposited data

Results flagged for a closer look

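SPP1 in myeloid-like cells was picked out because its bleb effect had opposite directions in the 2 eyes of NHP2. In the right eye the hRPGR and mScarlet blebs (1102 and 1693 CPM) lay below the uninjected area (3891), and in the left eye (2164 and 2862) above it (1651). The bleb effect in the left eye minus that in the right was 2.23 ± 0.68 on the log2 scale, with an unadjusted p of 0.0153 and an adjusted p of 0.766 over 10735 genes in edgeR, of which 0 were called. In the same test GPNMB (-4.70 ± 1.15, unadjusted p = 0.00579), CX3CR1 (2.18 ± 0.66, 0.0149) and P2RY12 (1.82 ± 0.64, 0.0276) also had an unadjusted p under 0.05, each with an adjusted p of 0.766 in edgeR. GPNMB was higher in the blebs of both eyes and by more in the right one, whose uninjected area held 3 UMIs. This comparison was added after the levels had been seen. The right uninjected area is the library with hRPGR transcripts, and the left eye had adalimumab, and eye, drug and area cannot be told apart.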

How the results depend on the processing

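For the mScarlet blebs against the uninjected areas 1 of the 9 genes was called. DESeq2 called 2 (4.09% of all genes), leiden resolution 1 called 2 (2.69%) and the fit with no filter on low counts 6 (6.03%). Library sizes alone (2.13%), free RNA subtracted (0%), doublets kept (0.959%) and cells of at least 3000 UMIs (1.11%) gave 0 each. A fit on the deep cluster alone (0.0196%) and a dispersion from all 8 libraries (2.54%), both chosen after seeing the data, called 0 each. Leaving out 1 library gave 0 to 2 (0.0192 to 2.13% of all genes). For the hRPGR blebs and for both blebs, no filter called 4 each in place of 0 (1.28% and 3.36% of all genes), and for both blebs DESeq2 called 2 and leaving out 1 library gave 0 to 1 (0.0334 to 0.621% of all genes). For NHP2 against NHP1, DESeq2 called 2, no filter 4 (2.78% of all genes), and leaving out 1 library gave 0 to 1 (CX3CR1 without the left uninjected area of NHP2; 0.0806 to 0.481% of all genes). In the other comparisons of these genes 0 were called under each alternative run. The replicate block by eye left the count for the mScarlet blebs at 1 (GPNMB) and at 0 for the hRPGR blebs, and gave share differences of -13.5 and 6.20 points; it changed no other call.

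Over all genes, no filter called 1114 for the mScarlet blebs, DESeq2 439 and free RNA subtraction 0, against 272. The cause of these changes was not tested.

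Of 993 log2 fold changes under alternatives 887 kept their direction and side of the threshold and 66 changed sign. Of the latter, 45 had both values within 1 SE of 0 and were not counted as reversals, and 21 were, all with 1 library left out. With 1 library left out, the mScarlet blebs gave -0.77 to 0.59 for SPP1. The hRPGR blebs gave -0.88 to 0.10 for P2RY13, -1.72 to 0.0361 for CX3CR1, -0.74 to 0.57 for SALL1 and -1.42 to 0.0113 for SPP1, and both blebs -1.06 to 0.30 for SPP1. Between vectors the range was -0.56 to 0.77 for SALL1 and -0.83 to 0.26 for GPR34. Left against right eyes gave -0.86 to 0.33 for P2RY12, -0.91 to 0.34 for CX3CR1, -0.35 to 0.88 for SALL1, -0.27 to 0.43 for GPR34, -0.29 to 0.91 for SPP1 and -1.12 to 0.56 for GPNMB. GPNMB between animals ran from -3.97 to 9.38, the latter against 1 library with 0 UMIs, so that it is no bound.

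The homeostatic share differed by -15.7 points at 3000 UMIs (p = 0.0667), -12.1 with doublets kept, -14.8 at resolution 1 and -17.4 to -9.70 with 1 library left out, and the disease-associated share by 2.76 at 3000 UMIs (p = 0.333), 8.93 with doublets kept (p = 0.200), 7.74 at resolution 1 (p = 0.200) and 4.00 to 8.41 with 1 library left out (exact permutation tests). Depth limits what can be said of SALL1, of GPNMB in uninjected areas and of the right NHP1 library, and each group has 2 libraries of 1 animal.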

Other observations

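The homeostatic and disease-associated genes were read together in single myeloid-like cells thinned to 1500 UMIs. Both kinds of UMI were found in 67.9% and 60.5% of cells of the right and left uninjected areas, in 42.0% and 64.1% of those of the hRPGR blebs, and in 55.5% and 50.5% of those of the mScarlet blebs. A homeostatic UMI alone was rare, at 0 to 3.70% of cells. APOE by itself was found in 72.6 to 96.4% of the myeloid-like cells of a library. The share with both kinds therefore mostly repeats the homeostatic share and cannot show that both programs ran in the same cell. Among cells with a GPNMB UMI, a homeostatic UMI was found in 38.8% of 134 and 53.8% of 26 in the right and left hRPGR blebs. The mScarlet blebs gave 52.9% of 140 and 45.6% of 114. Among cells without GPNMB the values were 45.2%, 69.0%, 57.4% and 54.4% in the same order. The share was lower among GPNMB cells in each of the 4 blebs, and the difference was not tested, since cells of a library are not replicates.

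The deep and shallow myeloid-like clusters differed in GPNMB in the left uninjected area, at 40.5 and 329 CPM on 18 and 23 UMIs, and in the right one GPNMB was counted in the deep cluster alone (3 UMIs). In the mScarlet blebs the deep cluster held 817 and 653 CPM and the shallow one 482 and 363. APOE was at 11057 and 12149 in the deep and at 11044 and 12684 in the shallow cluster of these blebs.

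The libraries labelled uninjected of NHP1 and NHP2, of which the left of NHP1 had hRPE65 in 46.6% and the right of NHP2 hRPGR in 17.7% of cells, differed in some genes of other macrophages. Of 8 monocyte genes 5 were tested, all 5 below 0 and 2 called, and of 6 border macrophage genes 5 were tested, all 5 below 0 and 1 called, beside 0.0934% of all genes lowered. S100A8 (adjusted p = 0.00584), S100A9 (0.0118) and CD163 (0.0118), a scavenger receptor, were lower in NHP2 in edgeR. Here too the p-values measure the spread between libraries of an animal and not between animals. Each call was lost without that right library of NHP2 and none of the 3 was kept in every alternative. CD163 was kept in 15 of 17, with log2 fold changes of -4.53 to -3.10, S100A8 in 14 of 16 and S100A9 in 11 of 16. Fold changes of S100A8 and S100A9 are not given, because they depend on the prior count where a group is near 0.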
